A study of Mus musculus with 21 samples.

Results

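The collagens of the mouse are described here as they appeared in RNA from sorted male germ cells. Every gene row whose symbol is Col, a number, the letter a and a number was taken, which gave 44 of 24495 gene rows. The rule reads names only and no measured value, although it was set with earlier results of these data known. The study took germ cells by flow sorting for the green fluorescence of an Oct4-GFP reporter, which all libraries carry, from testes of male offspring of matings between Tex15 heterozygotes on a mixed strain background. There were 7 groups of 3 libraries: heterozygous cells (Tex15+/-, here HT) and knockout cells (Tex15-/-, KO) at embryonic days 16.5 (E16.5) and 18.5 (E18.5) and at postnatal day 2.5 (D2.5), and wild type cells (WT) at D2.5 only.

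The submitters call the replicates biological; whether a library came from 1 animal or from pooled animals was not given in the sources used here. Tex15 encodes a protein of germ cells that acts in the silencing of transposons, and its counts checked the labels, at 741 to 4338 CPM (gene counts scaled to a fixed library total with TMM factors, the usual CPM) in HT and WT and 2.90 to 23.6 CPM in KO. Gene counts totalled 6063632 to 11884109 per library, and 3 counts corresponded to 0.224 to 0.556 CPM. The germ cell marker Ddx4, an RNA helicase of germ cells, stood at 261 to 1095 CPM. Pou5f1, which encodes Oct4, stood at 44.2 to 155 CPM in the embryonic libraries but at 0 to 9.61 CPM at D2.5, although the cells were sorted by an Oct4 reporter at that age too.

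Collagens are secreted triple helices that give tissues their strength. Fibril-forming collagens such as types I and III are made mainly by fibroblasts and other stromal cells, the type IV chains form the network of basement membranes, and further classes coat fibrils, form beaded filaments or span the cell membrane. In the fetal and newborn testis the germ cells lie inside cords of Sertoli cells, and a basement membrane, peritubular myoid cells and interstitial fibroblasts surround those cords. Collagen messages are therefore commonly read as a sign of stromal RNA, while RNA from bulk cells does not show which cell it came from.

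All 44 collagens were detected, and 40 of them had at least 1 count in each of the 21 libraries. The 4 others were Col26a1, Col9a1, Col8a2 and Col8a1, and they were at 0 only in libraries of D2.5. Mean levels over all libraries ran from 1.17 CPM for Col8a1 to 91.3 CPM for Col5a1. Per kilobase of exon, a scale that allows roughly for gene length, the highest were Col5a1 at 10.8, Col1a1 at 10.4 and Col3a1 at 6.11 CPM per kilobase. The length merged all annotated exons of a gene, so it can exceed that of its usual transcript. The exon annotation was not that of the mm9 build of the counts. The median of the 44 was 2.60 CPM per kilobase, against 3.88 for all genes with a mean of at least 1 CPM, and 11 of the 44 lay above that gene median. Summed, the 44 took 0.0241% to 0.188% of the gene counts of a library. Germ cell markers (15 genes) took 0.476% to 0.819%.

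**Figure D1:**
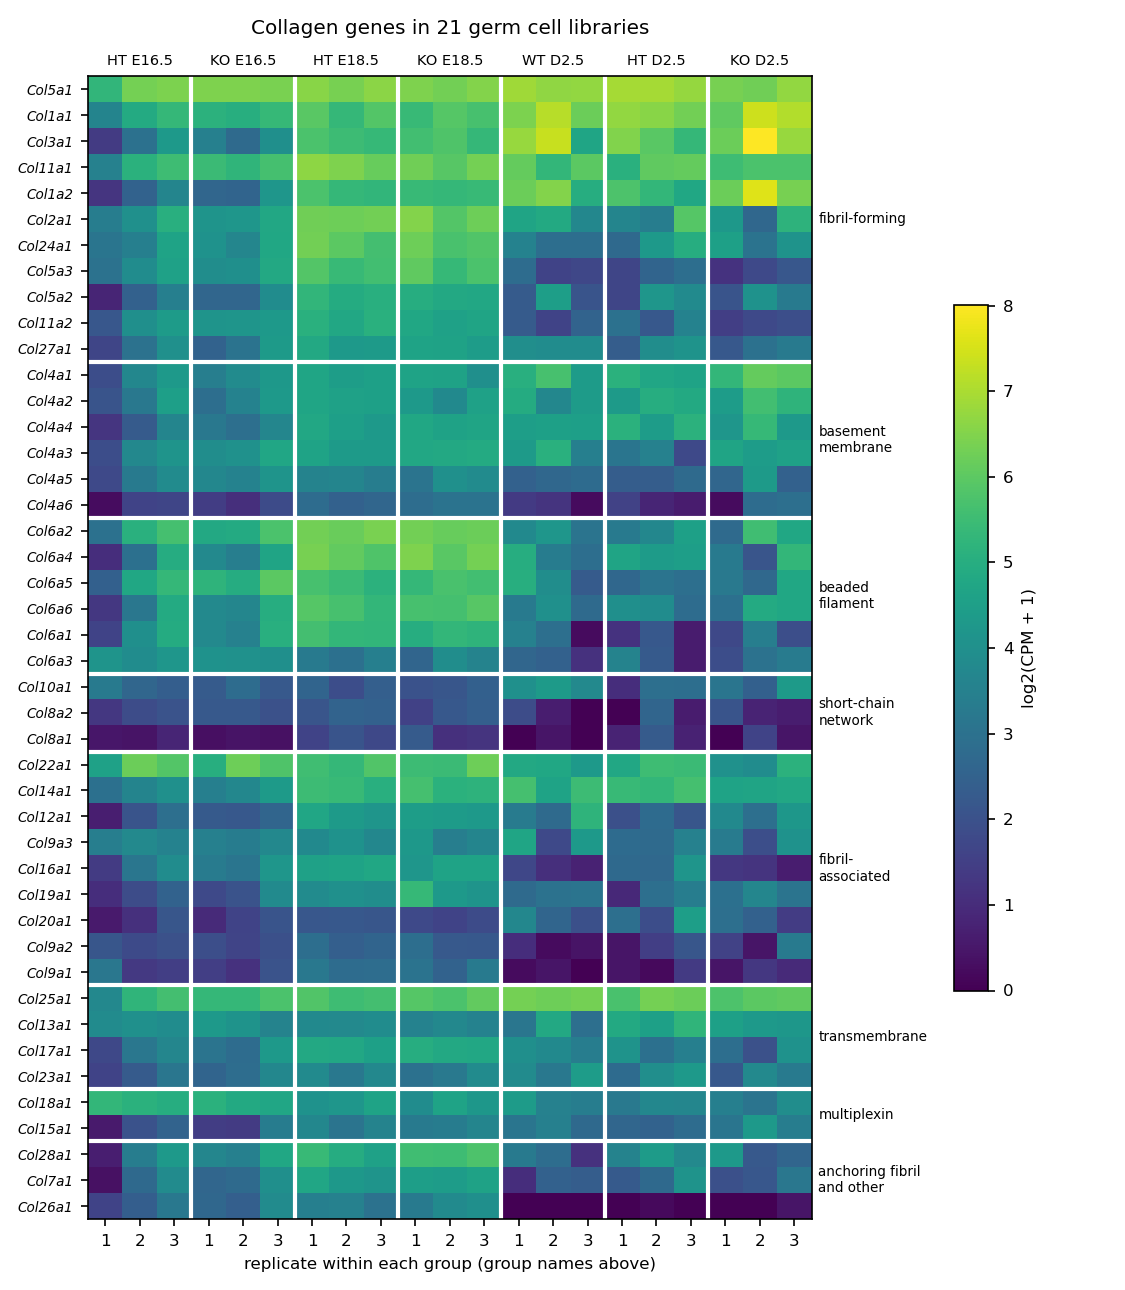
Heat map of log2(CPM + 1) for the 44 collagen genes (rows, by class) in the 21 libraries (columns, 3 replicates in each of 7 groups). Replicate 1 of HT at E16.5 has the lowest value of its age for 36 of the 44 genes, and Col26a1 is at 0.369 CPM or less in all 9 libraries of D2.5.

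Some libraries stood apart from their group before any comparison was made. At E16.5, HT replicate 1 was the lowest of the 6 libraries for 36 of 44 collagens, whereas the same library was the lowest for 39.2% of all genes with a mean of at least 1 CPM. Replicate 3 of HT or of KO was the highest for 35 of 44, against 41.9% of all such genes. Across the 44, the level in HT replicate 3 was a median of 5.39 times that in HT replicate 1, from 0.228 times for Col9a1, a cartilage collagen, to 46.4 times for Col7a1, the collagen of anchoring fibrils in skin. The ratio exceeded 2 for 36 members and was under 1 for Col9a1, Col10a1, Col18a1 and Col9a2. These libraries were compared because of the order just given, so the ratios only describe that order. The same ratio over all genes is not given here. HT replicate 1 also had more genes at 0 (5815) than the other libraries of that age (3410 to 4421) despite the most gene counts.

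The summed collagen level followed the same order. At E16.5 it was 276, 615 and 885 CPM in HT and 630.1, 647 and 974 CPM in KO. At E18.5 it was 1518, 1279 and 1283 CPM in HT and 1429, 1293 and 1421 CPM in KO, and all 6 values lay above those of E16.5. At D2.5 it was 821, 898 and 961 CPM in HT, 745, 1300.3 and 1119.9 CPM in KO and 1027, 1047 and 719 CPM in WT, and these groups overlapped. The E18.5 libraries also had the fewest genes at 0 (2359 to 2687), and those of D2.5 the most (7227 to 8279). With counts scaled to the total of genes and repeats together, the group means were 777 in HT at E18.5 and 259 in HT at D2.5, a wider gap than on the CPM scale used elsewhere. No test was made of these sums. In a bulk sample, fewer cells of a type and less RNA per cell cannot be told apart.

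Stromal markers were read beside the collagens. All 16 markers summed to 598, 415 and 358 CPM in HT and 379.9, 389 and 346 CPM in KO at E16.5, the reverse of the order of the collagens within HT. They summed to 519, 416 and 405 CPM in HT and 521, 395 and 433 CPM in KO at E18.5. In the D2.5 libraries the sums were 447, 392 and 301 CPM in HT, 457, 637 and 519 CPM in KO and 413, 385 and 367 CPM in WT. On this sum KO replicate 2 at D2.5 was the highest library and HT replicate 1 at E16.5 came next. Of the 16 markers, Ptch1, a receptor for hedgehog ligands, made up most of the sum in HT replicate 1 at E16.5 and had the reverse order of libraries: it stood at 528, 265 and 129.8 CPM in HT at E16.5. Without Ptch1 (left out after its values were seen) the other 15 summed to 69.98, 151 and 229 CPM in HT and 145, 153 and 239.8 CPM in KO at E16.5, so that the order within HT depended on this 1 gene. At E18.5 the 15 summed to 385, 278 and 287 CPM in HT and 372, 315 and 342 CPM in KO. At D2.5 they summed to 187, 201 and 144 CPM in HT, 189, 380.2 and 295 CPM in KO and 169, 199.8 and 123 CPM in WT. The KO replicates 2 and 3 were the highest of that age.

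Among the defining stromal markers, Pdgfra, the PDGF receptor of fibroblasts, measured 9.65 to 36.1 CPM in the embryonic libraries and 18.8 to 98.2 CPM at D2.5. Dcn, which encodes the small proteoglycan decorin of collagen fibrils, measured 0.483 to 9.66 CPM in the embryo. Its D2.5 libraries measured 22.7, 17.98 and 7.56 CPM in HT, 27.7, 50.8 and 57.1 CPM in KO and 13.2, 17.3 and 5.14 CPM in WT, so that KO lay above HT without overlap (log2 fold change 1.50 ± 0.52 SE, adjusted p = 0.444). Tcf21, a transcription factor of fetal gonadal mesenchyme, was low in all libraries at 0 to 4.60 CPM. The part of stromal RNA in the collagen values was not tested.

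Genes typical of other organs were read in the same way. A list of muscle, liver, gut, skin and sense organ genes was drawn up by gene identity after the data were seen, and 19 of its 20 names were found. All 19 were lowest of the 6 libraries in HT replicate 1 at E16.5 (39.2% of all genes), and 17 were highest in replicate 3 of HT or KO (41.9%); since the list was drawn up after this pattern had been seen in the data, these counts support nothing. Apob, the apolipoprotein of liver and gut, measured 5.69, 17.3 and 58.5 CPM in HT at E16.5, 245, 256 and 209 CPM at E18.5 and 39.2, 53.2 and 74.2 CPM at D2.5. Myh2, a myosin of fast muscle, measured 0.290, 5.75 and 28.2, then 64.6, 64.3 and 30.5, then 0.181, 6.71 and 0 CPM in HT at these ages. In HT, 4 rose and 0 fell of the 19 before birth, where 4.81% of all genes passed upward and 8.39% downward, and 2 rose and 10 fell of 19 after it (21.4% and 33.4%). HT replicate 1 of E16.5 is part of the comparison before birth, and the list was drawn up with the values seen. These counts therefore support nothing either. Neb, which encodes nebulin of the sarcomere, was higher in all HT libraries after birth, with 789, 695 and 576 CPM at E18.5 and 2578, 3166 and 2663 CPM at D2.5 in HT.

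**Figure D2:**
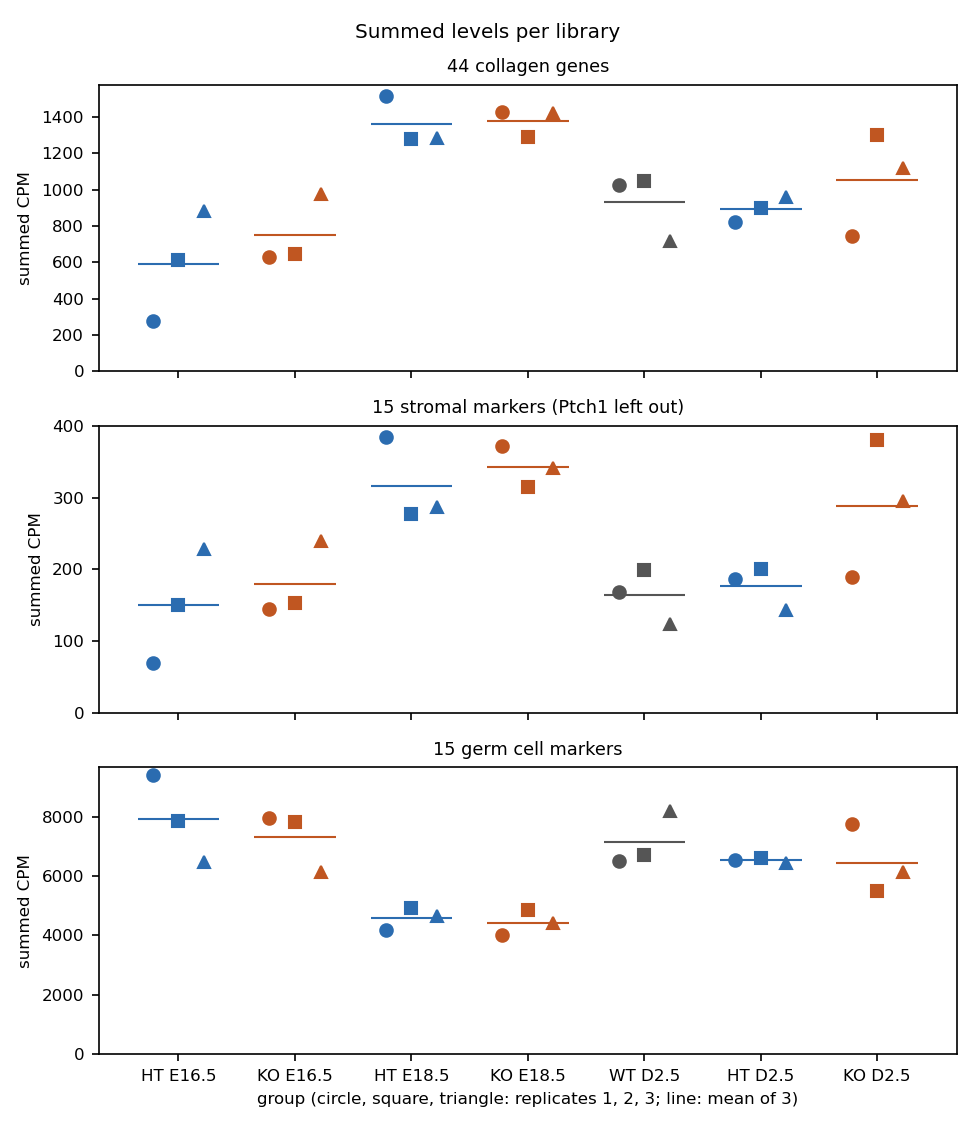
Summed CPM per library (vertical axes from 0) of the 44 collagen genes, of 15 stromal markers without Ptch1 and of 15 germ cell markers; symbols are replicates 1 to 3 and lines are means of 3. The group means of collagens and of these 15 markers are highest at E18.5, and both sums are lowest in replicate 1 of HT at E16.5, which does not hold with Ptch1 (all 16 markers: group mean highest in KO at D2.5, 538 CPM, and HT replicate 1 at E16.5 at 598 CPM), while germ cell markers are highest in that library (9397 CPM) with their lowest group means at E18.5.

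The question of the study's design is what loss of Tex15 changes. No collagen passed the test (adjusted p under 0.05, edgeR) between KO and HT or WT at any age. At E16.5 this was 0 of 43 tested, where 0.00618% of all 16185 genes passed and 0 collagens had an unadjusted p under 0.05 (1.17% of all genes). At E18.5 it was 0 of 44, where 2.14% of all genes passed, with 3 collagens at an unadjusted p under 0.05 (8.12%). At D2.5 it was 0 of 41 for KO against HT, where 0.153% of all genes passed, with 6 collagens at an unadjusted p under 0.05 (7.21%). KO against WT gave 0 of 41 (0.216% of all genes passed) with 1 unadjusted (7.77%), and HT against WT gave 0 of 41 (0.00696%) with 4 unadjusted (3.4%). The 3 comparisons of D2.5 share libraries with each other.

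The sizes of these differences varied with the age. At E16.5, 37 of 43 fitted values were above 0 with a median log2 fold change of 0.37, against -0.01 for all genes. Without HT replicate 1, lowest for most collagens, the median was 0.06, without HT replicate 3 it was 1.09, and without KO replicate 3 its sign turned, at -0.02; 0 collagens passed in any of these fits. KO and HT overlapped for all 43 at that age, where 3.19% of all genes were higher in every KO library and 3.06% were lower. At E18.5 the median was -0.04, and the values ran from -0.58 to 0.82. There, 4 collagens were higher in every KO library (Col28a1, Col19a1, Col4a3 and Col4a6; 8.18% of all genes) and 3 were lower (Col11a2, Col13a1 and Col20a1; 5.52%). At D2.5 the median of KO against HT was -0.17, with values from -3.08 to 1.99. There, 5 were higher in every KO library (Col1a2, Col4a1, Col4a3, Col12a1 and Col15a1; 5.83%) and 4 were lower (Col5a1, Col11a2, Col14a1 and Col16a1; 5.87%). Against WT, 0 collagens were higher in every KO library (6.41%) and 2 lower (Col25a1 and Col27a1; 6.2%). HT lay above WT for 2 of those tested (Col16a1 and Col28a1; 4.29%) and below it for 1 (Col10a1; 4.39%). The biological coefficient of variation over all genes was lowest in the fit of E18.5 at 17.9%, against 37.3% in that of E16.5 and 55.4% in that of D2.5.

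The test of the difference between ages also called no collagen. For the KO effect at E18.5 minus that at E16.5 this was 0 of 44 (0% of all genes; 0 collagens at an unadjusted p under 0.05, 0.829% of all genes), and for D2.5 minus E18.5 it was 0 of 44 (0.0531% of all genes; 3 collagens unadjusted, 10.4% of all genes).

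**Figure D3:**
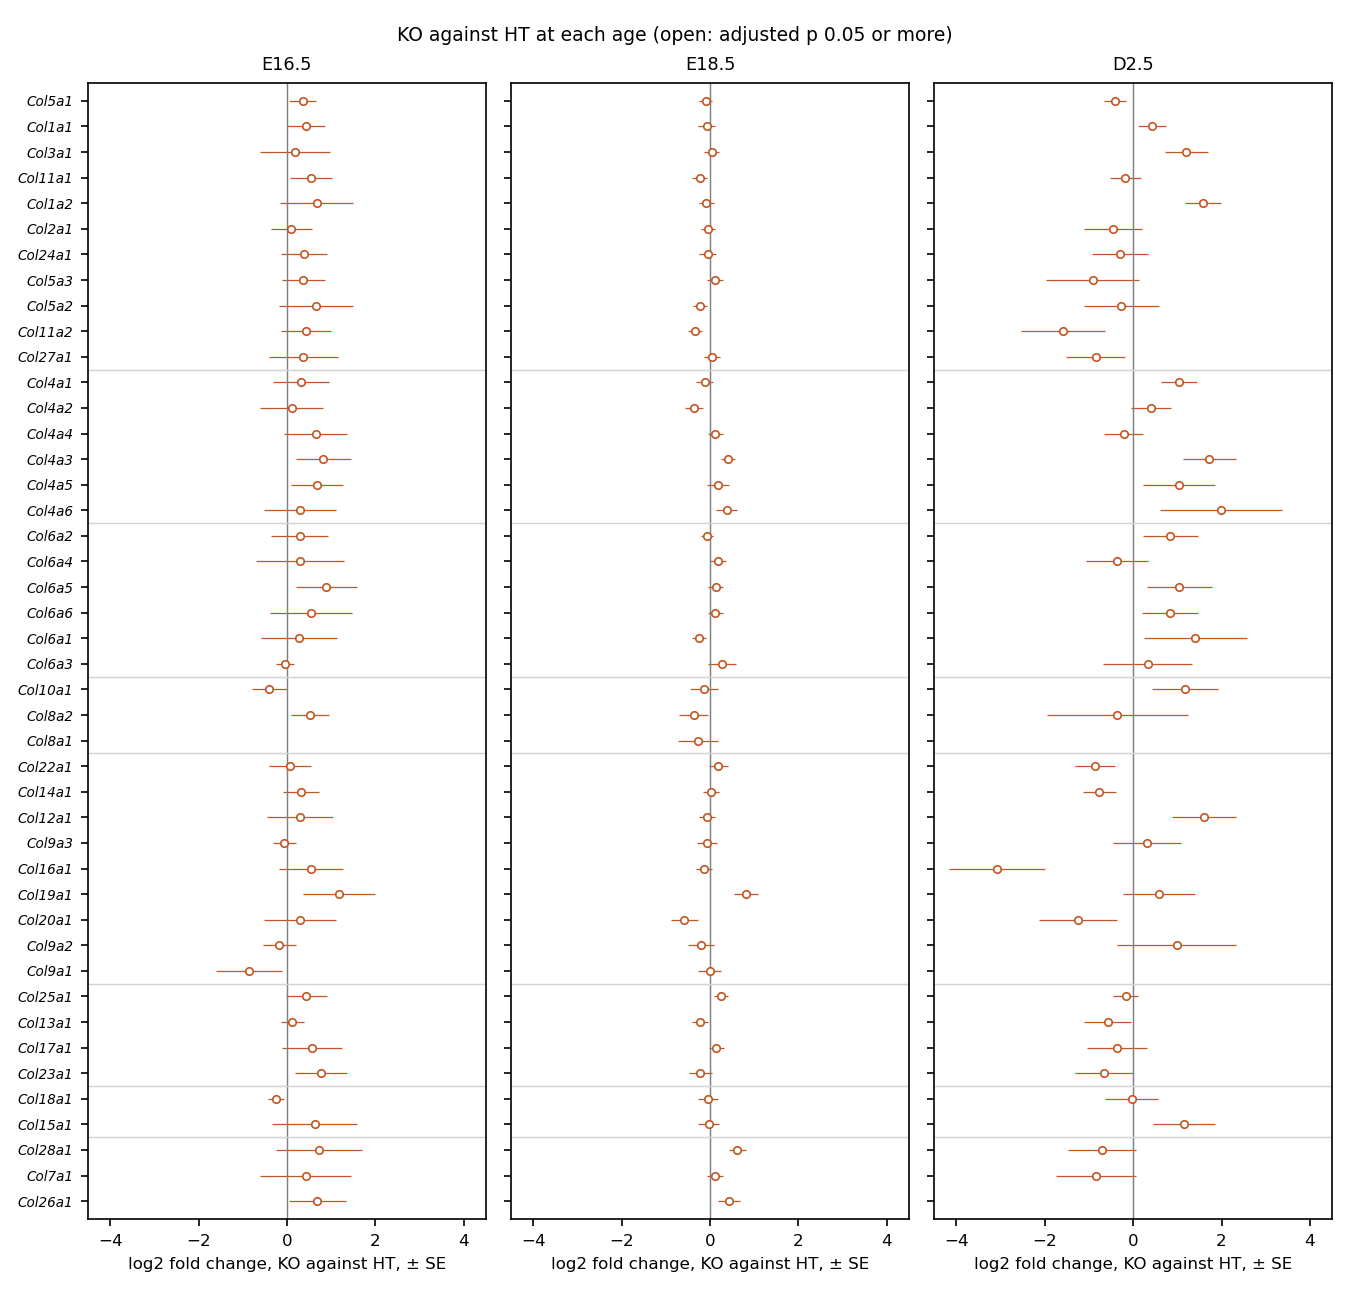
Log2 fold change of KO against HT with its SE (horizontal axis) for each collagen gene (vertical axis, by class), with a panel for E16.5, another for E18.5 and a last for D2.5; open circles have an adjusted p of 0.05 or more and genes not tested at an age have no point. No circle is filled; the E18.5 values lie between -0.58 and 0.82, while those of D2.5 reach from -3.08 to 1.99.

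More collagens passed between ages than between genotypes. Between E16.5 and E18.5 in HT, 13 of 44 collagens rose and 0 fell, where 13.2% of all 18815 genes passed, 4.81% upward and 8.39% downward. The median log2 fold change of the 44 was 1.40, against 0.11 for all genes. In KO (a comparison added after seeing the data) 4 rose and 0 fell, where 4.54% of all genes passed, 1.65% upward and 2.9% downward, and the median was 0.94. In HT, 30 lay higher without overlap (30.3% of all genes) and 2 lower (22.2%). In KO, 26 lay higher without overlap (29.5% of all genes) and 2 lower (21.8%). The 4 called in KO, Col1a2, Col3a1, Col12a1 and Col14a1, were all among the 13 of HT, 30.8% of the calls in HT and all of those in KO. The deposited tables are separate for each age, so age and any difference between the tables cannot be told apart.

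The count of 13 depended on single libraries. It was 3 without HT replicate 1 of E16.5, 4 without replicate 2 and 28 without replicate 3 (27 rose and 1 fell), and the median of the 44 was 0.90, 1.33 and 1.98 in these fits. Leaving out an HT library of E18.5 gave 3, 7 and 8 for replicates 1, 2 and 3. Col1a2, Col12a1 and Col14a1 were called in all 6 of these fits. The count of 4 in KO was 0, 0 and 8 without replicate 1, 2 or 3 of E16.5 and 0, 1 and 1 without replicate 1, 2 or 3 of E18.5.

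Between E18.5 and D2.5 in HT, 1 collagen rose (Col13a1) and 14 fell, where 54.8% of all genes passed, 21.4% upward and 33.4% downward. The median of the 44 was -1.11, against -0.51 for all genes. Whichever HT library of these ages was left out, 10 of the 15 calls were kept. The 5 others were Col4a3 and Col6a6, lost without replicate 3 of D2.5, and Col2a1, Col4a6 and Col18a1, lost in most such fits, where the values ran from -2.77 to -1.04, -2.93 to -1.87 and -0.85 to -0.54. In KO, 6 rose and 17 fell, where 55.2% of all genes passed, 21% upward and 34.2% downward. Counted by whether the libraries overlapped, 3 lay higher without overlap (23.7% of all genes) and 27 lower (41.7%) in HT, and 5 lay higher without overlap (22.6% of all genes) and 23 lower (42.3%) in KO. The 6 called upward in KO were Col1a1, Col1a2, Col3a1, Col4a1, Col10a1 and Col13a1. HT and KO shared 11 calls, 73.3% of those in HT and 47.8% of those in KO, and the count in KO was 14 without replicate 1 or without replicate 2 of KO at D2.5. Of these KO calls, 20 were followed through the 6 fits that left out a KO library of these ages, and 8 were kept in all 6. The 8 were Col1a1, Col4a1, Col5a3, Col6a1, Col9a1, Col11a2, Col24a1 and Col26a1. Col1a2 (1.04) and Col3a1 (1.05) did not pass without replicate 2 of D2.5. The KO call of Col6a2 was kept in 1 of the 6 fits, those of Col6a4 and Col22a1 in 3, and those of Col6a5, Col17a1 and Col28a1 in 4. Col2a1, Col5a3, Col12a1 and Col24a1 both rose before birth and fell after it in HT. Both steps use the same HT libraries of E18.5, so they are not independent. The share of all genes called in both steps is not given here. For each step, the call of Col2a1 was kept in 1 of the 6 fits that left out an HT library.

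**Figure D4:**
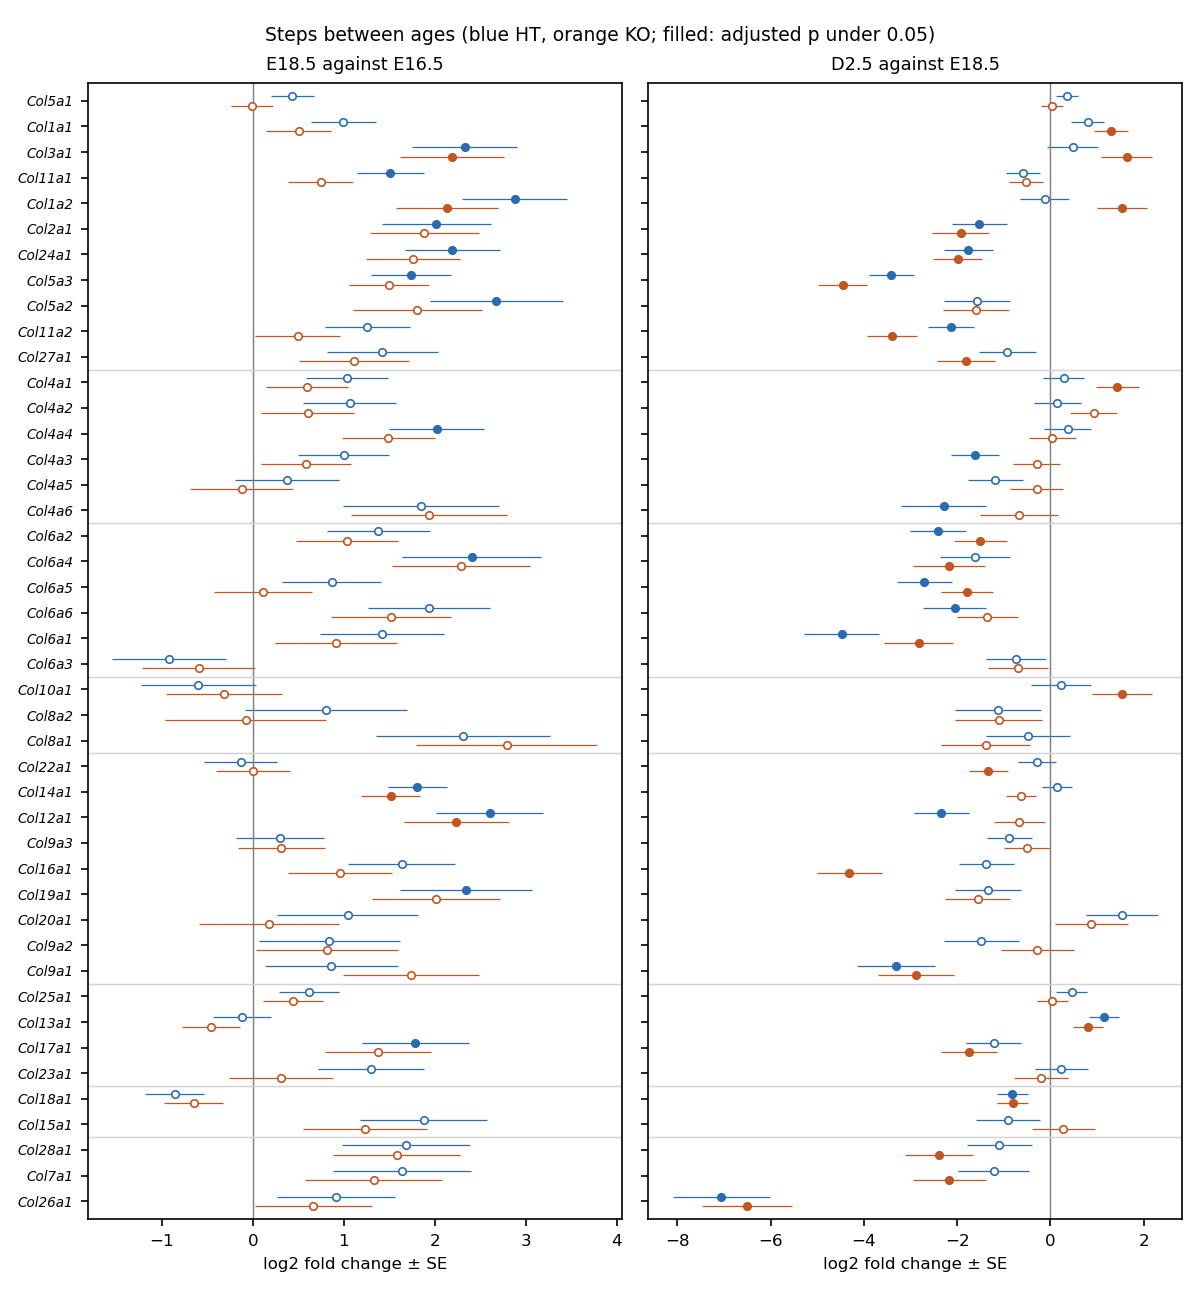
Log2 fold change with SE for each collagen gene, E18.5 against E16.5 (left) and D2.5 against E18.5 (right), in HT (blue) and KO (orange); filled circles have an adjusted p under 0.05. Filled circles lie to the right of 0 in the left panel, 13 in HT and 4 in KO, and mostly to the left of 0 in the right panel.

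The fibril-forming class (11 genes) held the 4 collagens with the highest CPM and 7 of the 13 that rose in HT before birth (4.81% of all genes). Col1a1 and Col1a2 encode the chains of type I collagen, the main fibril protein of skin, bone and most stroma, and Col3a1 encodes type III collagen, which accompanies it in soft tissues. Col1a2 in HT measured 1.35, 4.78 and 11.4 CPM at E16.5, 51.9, 39.5 and 37.95 CPM at E18.5 and 53.3, 38.7 and 26.5 CPM at D2.5. Col1a2 in KO was at 5.27, 4.94 and 17.7, then 41.4, 39.5 and 41.3, then 72.7, 198 and 82.4 CPM at the same ages, and in WT at 73.5, 91.2 and 30.7 CPM. The 3 KO libraries of D2.5 lay above the 3 HT libraries, and KO replicate 2 was the highest of all 21. Col1a2 rose in HT between E16.5 and E18.5 by a log2 fold change of 2.88 ± 0.58 (SE, adjusted p = 0.00561), the scale of all rises, falls and differences given below, and in KO by 2.13 ± 0.56 (SE, adjusted p = 0.0353). Against HT at D2.5, KO differed by 1.57 ± 0.41 (SE, adjusted p = 0.183), and by 0.98 (adjusted p = 0.575) without KO replicate 2. DESeq2 called this difference (adjusted p = 0.0306), as did edgeR without a filter on low counts (adjusted p = 0.000354). From E18.5 to D2.5 the value was -0.12 ± 0.53 (SE, adjusted p = 0.857) in HT and 1.53 ± 0.54 (SE, adjusted p = 0.0212) in KO.

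Col3a1 in HT measured 1.64, 6.90 and 18.8 CPM at E16.5, 52.6, 44.3 and 40.7 CPM at E18.5 and 89.97, 61.7 and 39.00 CPM at D2.5. Col3a1 in KO was at 10.2, 5.88 and 14.99, then 47.1, 55.2 and 39.1, then 73.1, 257 and 109 CPM at the same ages, and in WT at 108, 160.4 and 25.3 CPM. KO replicate 2 at D2.5 again held the highest value, KO and HT overlapped, and all E18.5 libraries lay above all those of E16.5. Col3a1 rose in HT before birth by 2.33 ± 0.57 (SE, adjusted p = 0.0145) and in KO by 2.19 ± 0.57 (SE, adjusted p = 0.0346), and after birth it rose in KO by 1.64 ± 0.55 (SE, adjusted p = 0.0164), with 0.47 ± 0.54 (SE, adjusted p = 0.472) in HT. KO differed from HT at D2.5 by 1.21 ± 0.48 (SE, adjusted p = 0.549), and by 0.53 without KO replicate 2, while edgeR called the difference without the filter on low counts (adjusted p = 0.00456). Col1a1 had the same highest library. Col1a1 in HT measured 11.2, 29.03 and 39.3 CPM at E16.5, 61.8, 39.03 and 57.8 CPM at E18.5 and 103, 94.2 and 77.7 CPM at D2.5. Col1a1 in KO was at 34.1, 31.2 and 40.7, then 41.2, 59.04 and 50.3, then 65.9, 169 and 135 CPM at the same ages, and in WT at 85.3, 142 and 72.6 CPM. HT at D2.5 lay above HT at E18.5 without overlap, and KO did too. The step between the embryonic ages was 0.99 ± 0.36 (SE, adjusted p = 0.0690) in HT, and the KO libraries of D2.5 overlapped with HT with a log2 fold change of 0.43 ± 0.32 (SE, adjusted p = 0.838). From E18.5 to D2.5 Col1a1 rose in KO by 1.30 ± 0.36 (SE, adjusted p = 0.00495). In HT it was also higher at D2.5 but did not pass. Among the libraries of D2.5 only, the summed stromal markers were highest in KO replicates 2 and 3, with or without Ptch1. The part of stromal RNA in these values was not tested.

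The windows before the starts of Col1a2 and Col3a1 are shown because both genes rose before birth in HT and in KO and yet differ in the letters before the start. They are the 250 bases before the RefSeq start (GRCm38.p6, not the mm9 build of the counts), at chr6:4505368-4505617 for Col1a2 and chr1:45311288-45311537 for Col3a1, both on the + strand. Capitals mark CCAAT (or its reverse complement ATTGG), the recognition sequence of the factor NF-Y, and TATAAA (or TTTATA), the letters of a TATA box wherever they lie. The TATAAA of Col3a1 lies near the middle of the stretch shown, and whether it acts as a TATA box was not tested.
Col1a2: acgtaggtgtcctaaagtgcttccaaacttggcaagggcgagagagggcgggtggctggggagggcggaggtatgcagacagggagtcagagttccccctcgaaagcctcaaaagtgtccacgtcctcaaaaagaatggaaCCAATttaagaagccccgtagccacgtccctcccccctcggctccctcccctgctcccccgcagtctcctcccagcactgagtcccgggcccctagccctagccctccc
Col3a1: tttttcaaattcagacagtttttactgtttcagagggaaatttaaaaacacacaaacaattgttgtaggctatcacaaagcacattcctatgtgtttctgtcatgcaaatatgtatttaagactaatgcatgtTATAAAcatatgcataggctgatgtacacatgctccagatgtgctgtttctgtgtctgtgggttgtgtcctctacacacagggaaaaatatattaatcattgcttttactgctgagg
In windows of 300 bases (250 before to 50 after the start), Col1a2 had 2 CCAAT matches on either strand, 1 of them in the part shown, and 13 CG pairs, while Col3a1 had 0 and 0 and held a TATAAA match. Of the 44 collagens 35 matched a RefSeq window, 38 windows in all. CCAAT was in 34.2% of these and in 37.4% of all 32851 windows, and TATAAA in 13.2% and 13.6%. The median number of CG pairs was 11.5 in the collagen windows and 7 in all. A match describes the letters and does not show a bound site.

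Col5a1, a chain of type V collagen, which starts and thins type I fibrils, had the highest CPM of the 44. Col5a1 in HT measured 37.9, 80.3 and 84.4 CPM at E16.5, 94.1, 81.6 and 97.9 CPM at E18.5 and 119.7, 121 and 107 CPM at D2.5. Col5a1 in KO was at 86.5, 87.02 and 84.04, then 86.3, 78.7 and 91.2, then 81.2, 76.6 and 104 CPM at the same ages, and in WT at 115, 100.4 and 103 CPM. Apart from HT replicate 1 at E16.5 all values lay between 76.6 and 121 CPM. KO at D2.5 lay below HT without overlap, with a log2 fold change of -0.41 ± 0.24 (SE, adjusted p = 0.769). Its partner chain Col5a2 took another course. Col5a2 in HT measured 0.772, 4.60 and 10.1 CPM at E16.5, 37.4, 29.3 and 32.4 CPM at E18.5 and 2.18, 17.7 and 13.2 CPM at D2.5. Col5a2 in KO was at 5.27, 5.19 and 13.8, then 30.5, 27.5 and 26.8, then 3.24, 15.9 and 8.68 CPM at the same ages, and in WT at 3.88, 21.5 and 3.25 CPM. All 6 values of E18.5 lay above all others. Col5a2 rose in HT before birth by 2.68 ± 0.73 (SE, adjusted p = 0.0237), and its step to D2.5 was -1.57 ± 0.70 (SE, adjusted p = 0.0646). Another type V chain, Col5a3, was far lower after birth. Col5a3 in HT measured 7.05, 13.8 and 22.8 CPM at E16.5, 57.5, 41.4 and 47.1 CPM at E18.5 and 2.18, 5.03 and 6.36 CPM at D2.5. Col5a3 in KO was at 14.1, 14.8 and 27.3, then 66.1, 40.3 and 52.2, then 1.26, 2.41 and 3.51 CPM at the same ages, and in WT at 6.17, 2.02 and 2.23 CPM. All 9 values of D2.5 lay below all 12 of the embryo. Col5a3 rose in HT before birth by 1.74 ± 0.44 (SE, adjusted p = 0.0164) and then fell by 3.42 on the log2 scale in HT (SE 0.48, adjusted p = 8.19e-06) and by 4.46 in KO (SE 0.52, adjusted p = 7.53e-07).

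Col2a1, Col11a1 and Col11a2 are collagens of cartilage, a tissue the sorted cells do not contain by their labels. Col2a1 in HT measured 9.56, 15.2 and 31.97 CPM at E16.5, 76.98, 74.7 and 78.5 CPM at E18.5 and 11.4, 9.60 and 58.9 CPM at D2.5. Col2a1 in KO was at 16.7, 17.3 and 26.6, then 91.3, 57.6 and 75.01, then 18.4, 5.38 and 34.9 CPM at the same ages, and in WT at 24.7, 28.3 and 11.99 CPM. The E18.5 libraries were highest in both genotypes, and HT replicate 3 stood out at D2.5. Col2a1 rose before birth in HT by 2.02 ± 0.60 (SE, adjusted p = 0.0345) and fell after it, with a log2 fold change of -1.52 ± 0.60 (SE, adjusted p = 0.0364). Col11a1 varied less. Col11a1 in HT measured 10.4, 33.4 and 45.1 CPM at E16.5, 98.3, 86.3 and 69.4 CPM at E18.5 and 33.2, 65.8 and 68.9 CPM at D2.5. Col11a1 in KO was at 42.6, 37.2 and 49.3, then 76.5, 59.9 and 80.1, then 44.8, 52.1 and 52.7 CPM at the same ages, and in WT at 68.9, 38.4 and 63.2 CPM. Col11a1 rose in HT by 1.51 ± 0.37 (SE, adjusted p = 0.0134), and E18.5 overlapped with no other age in HT. Col11a2 in HT measured 3.47, 15.05 and 20.3 CPM at E16.5, 32.9, 27.1 and 32.9 CPM at E18.5 and 6.89, 3.66 and 10.7 CPM at D2.5. Col11a2 in KO was at 16.6, 17.03 and 18.8, then 26.1, 22.9 and 24.7, then 1.80, 2.41 and 2.77 CPM at the same ages, and in WT at 3.88, 2.02 and 4.79 CPM. Apart from HT replicate 1 at E16.5, every embryonic value lay above every value of D2.5. Col11a2 fell from E18.5 to D2.5 with a log2 fold change of -2.13 ± 0.49 (SE, adjusted p = 0.00118) in HT and -3.39 ± 0.53 (SE, adjusted p = 2.90e-05) in KO, and KO lay below HT without overlap at E18.5 (-0.34 ± 0.16 SE, adjusted p = 0.641), as it did in the D2.5 libraries (-1.59 ± 0.95 SE, adjusted p = 0.774). Col24a1, a fibril-forming collagen of developing bone and cornea, had the same rise and fall as Col2a1. Col24a1 in HT measured 7.63, 9.91 and 23.8 CPM at E16.5, 77.6, 63.1 and 48.5 CPM at E18.5 and 5.62, 19.1 and 31.1 CPM at D2.5. Col24a1 in KO was at 15.9, 11.8 and 26.2, then 75.01, 51.5 and 56.04, then 22.3, 7.23 and 16.3 CPM at the same ages, and in WT at 10.8, 6.44 and 6.51 CPM. All 6 values of E18.5 lay above all others. Its steps in HT were 2.19 ± 0.52 (SE, adjusted p = 0.0123) and -1.76 ± 0.52 (SE, adjusted p = 0.00744).

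**Figure D5:**
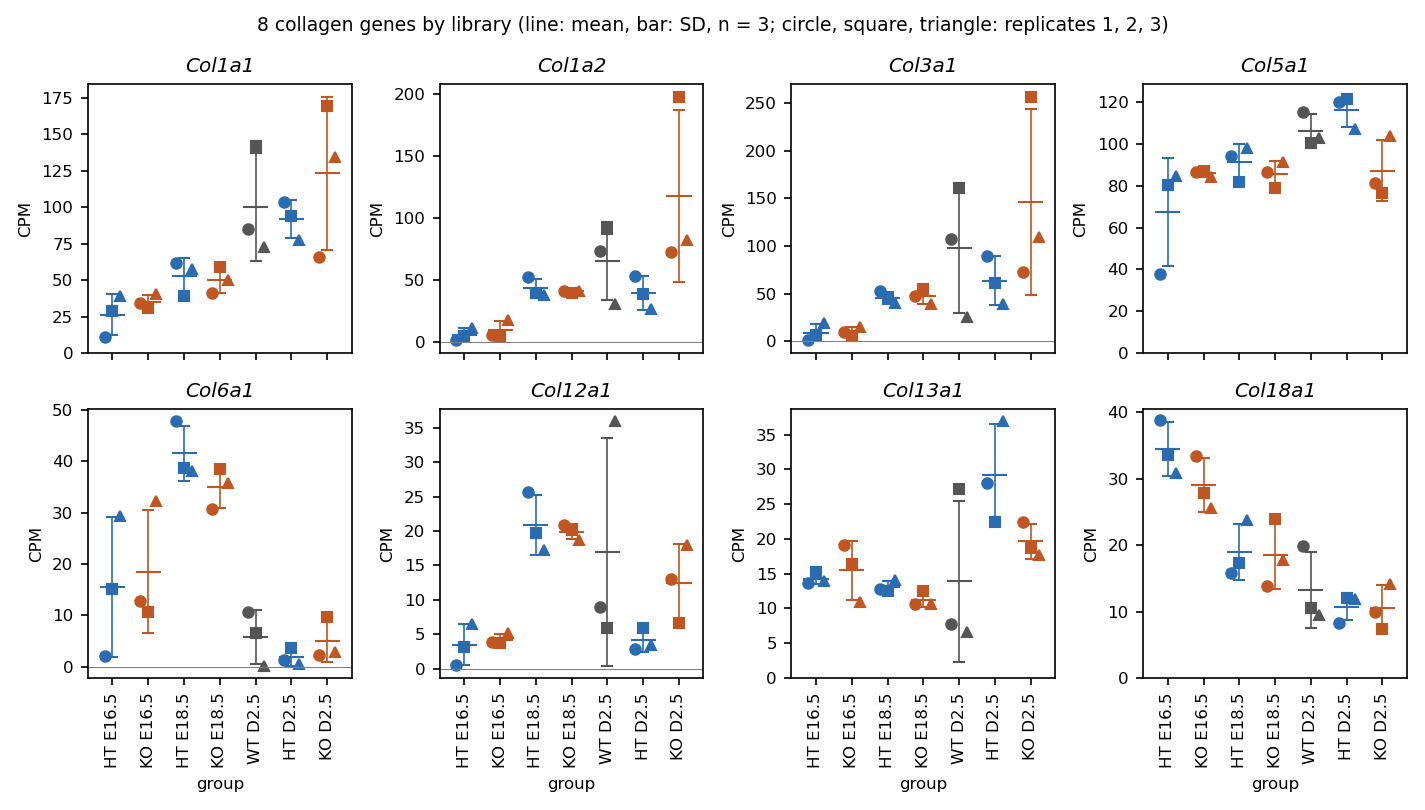
CPM per library (symbols), group mean (line) and SD (bar, n = 3) for 8 collagen genes in the 7 groups; the vertical axes differ between panels. Col1a2 and Col3a1 are at 18.8 CPM or less at E16.5 and reach 198 and 257 CPM in KO replicate 2 at D2.5, the means of Col6a1 are lowest at D2.5, and every value of Col18a1 at E16.5 lies above those of the other ages.

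Of the 6 basement membrane collagens, 1 rose in HT before birth (4.81% of all genes) and 2 fell after it (33.4%). Col4a1 and Col4a2 encode the chains found in all basement membranes, and the annotated start windows of these neighbours on chromosome 8 run in opposite directions and share 78 bases. Col4a1 in HT measured 2.70, 12.04 and 18.5 CPM at E16.5, 24.9, 20.97 and 22.5 CPM at E18.5 and 33.6, 25.5 and 23.9 CPM at D2.5. Col4a1 in KO was at 9.67, 13.5 and 18.3, then 24.2, 23.7 and 15.02, then 38.4, 68.8 and 62.8 CPM at the same ages, and in WT at 32.3, 50.03 and 20.04 CPM. Every KO library of D2.5 lay above every HT library, with a log2 fold change of 1.04 ± 0.40 (SE, adjusted p = 0.537), and without KO replicate 2 the value was 0.88 (adjusted p = 0.684). Col4a1 rose in KO from E18.5 to D2.5 by 1.43 ± 0.45 (SE, adjusted p = 0.0115), with 0.28 ± 0.45 (SE, adjusted p = 0.615) in HT. Col4a2 passed in no comparison and ranged from 3.19 CPM in HT replicate 1 at E16.5 to 46.9 CPM in KO replicate 2 at D2.5.

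The chains Col4a3 and Col4a4 belong to specialised basement membranes such as that of the kidney glomerulus. Col4a3 in HT measured 2.70, 12.3 and 16.5 CPM at E16.5, 24.1, 19.5 and 19.6 CPM at E18.5 and 7.62, 10.4 and 2.41 CPM at D2.5. Col4a3 in KO was at 14.3, 15.6 and 25.7, then 27.1, 27.7 and 28.7, then 24.5, 20.4 and 22.9 CPM at the same ages, and in WT at 19.6, 32.9 and 9.93 CPM. KO lay above HT without overlap at E18.5 (0.40 ± 0.16 SE, adjusted p = 0.466), as it did in the D2.5 libraries (1.73 ± 0.60 SE, adjusted p = 0.433), but neither passed, and at D2.5 KO overlapped with WT (0.11 ± 0.58 SE, adjusted p = 0.986). Col4a3 fell in HT after birth with a log2 fold change of -1.62 ± 0.52 (SE, adjusted p = 0.0123), and the value in KO was -0.30 ± 0.50 (SE, adjusted p = 0.627). Col4a4 in HT measured 1.35, 3.89 and 11.6 CPM at E16.5, 27.2, 21.9 and 19.3 CPM at E18.5 and 33.4, 20.7 and 34.4 CPM at D2.5. Col4a4 in KO was at 8.21, 6.64 and 11.7, then 26.5, 23.6 and 24.4, then 17.3, 39.9 and 19.2 CPM at the same ages, and in WT at 21.3, 22.6 and 22.1 CPM. All values of E18.5 lay above all those of E16.5, and HT overlapped between E18.5 and D2.5. Col4a4 rose in HT before birth by 2.02 ± 0.53 (SE, adjusted p = 0.0192) and did not pass in the step to D2.5 (0.37 ± 0.50 SE, adjusted p = 0.548). Col4a6, a chain of smooth muscle and some epithelial basement membranes, was scarce. Col4a6 in HT measured 0.193, 2.04 and 2.21 CPM at E16.5, 6.16, 4.63 and 5.30 CPM at E18.5 and 2.00, 0.762 and 0.515 CPM at D2.5. Col4a6 in KO was at 1.73, 1.11 and 2.58, then 6.33, 7.22 and 7.23, then 0.180, 6.12 and 6.65 CPM at the same ages, and in WT at 1.59, 1.29 and 0.171 CPM. Its fall in HT was -2.29 ± 0.90 (SE, adjusted p = 0.0378), with -0.68 ± 0.83 (SE, adjusted p = 0.502) in KO, where only replicate 1 was under all HT libraries of D2.5.

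Type VI collagens form beaded filaments around cells in most connective tissue, and 4 of the 6 chains fell in HT after birth (33.4% of all genes). Col6a1 and Col6a2 encode the chains shared by the usual type VI molecules. Col6a1 in HT measured 2.03, 15.05 and 29.3 CPM at E16.5, 47.7, 38.7 and 38.03 CPM at E18.5 and 1.27, 3.66 and 0.515 CPM at D2.5. Col6a1 in KO was at 12.7, 10.6 and 32.3, then 30.6, 38.5 and 35.7, then 2.34, 9.64 and 2.77 CPM at the same ages, and in WT at 10.6, 6.62 and 0.171 CPM. All 6 values of E18.5 lay above all 9 of D2.5. Col6a2 in HT measured 6.85, 33.2 and 49.1 CPM at E16.5, 78.2, 70.9 and 83.2 CPM at E18.5 and 8.89, 12.04 and 22.5 CPM at D2.5. Col6a2 in KO was at 27.6, 28.95 and 52.05, then 78.4, 70.7 and 73.1, then 5.76, 45.97 and 26.6 CPM at the same ages, and in WT at 13.04, 17.5 and 7.53 CPM. The same held for this gene. For both, all HT values at D2.5 lay below all HT values at E18.5. Col6a1 fell with a log2 fold change of -4.48 ± 0.81 (SE, adjusted p = 0.000130) in HT and -2.83 ± 0.74 (SE, adjusted p = 0.00320) in KO, and Col6a2 with a log2 fold change of -2.42 ± 0.60 (SE, adjusted p = 0.00210) and -1.50 ± 0.57 (SE, adjusted p = 0.0319). The call of Col6a2 in KO was kept in only 1 of the 6 fits that left out a KO library. Col6a3, their usual partner, measured 13.9 to 17.6 CPM at E16.5, 5.16 to 14.4 CPM at E18.5 and 0.515 to 10.9 CPM at D2.5, and passed in no comparison.

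Col6a4, Col6a5 and Col6a6 encode longer chains related to Col6a3. Col6a4 in HT measured 1.06, 6.81 and 30.2 CPM at E16.5, 80.9, 66.9 and 54.5 CPM at E18.5 and 24.5, 20.1 and 21.3 CPM at D2.5. Col6a4 in KO was at 12.5, 9.71 and 24.7, then 87.96, 61.02 and 79.6, then 8.82, 3.34 and 38.4 CPM at the same ages, and in WT at 30.7, 9.38 and 6.51 CPM. All 6 values of E18.5 lay above all others. Col6a4 rose in HT before birth by 2.41 ± 0.76 (SE, adjusted p = 0.0437) and fell in KO after it with a log2 fold change of -2.17 ± 0.76 (SE, adjusted p = 0.0210). Col6a5 in HT measured 4.54, 26.02 and 39.1 CPM at E16.5, 49.99, 42.6 and 34.7 CPM at E18.5 and 5.44, 7.47 and 6.53 CPM at D2.5. Col6a5 in KO was at 35.8, 29.8 and 62.6, then 39.7, 51.7 and 47.5, then 8.46, 5.56 and 26.05 CPM at the same ages, and in WT at 31.5, 14.2 and 3.94 CPM. In this gene the highest library was KO replicate 3 at E16.5, and Col6a5 fell in HT after birth with a log2 fold change of -2.70 ± 0.59 (SE, adjusted p = 0.000791) and in KO with a log2 fold change of -1.79 ± 0.57 (SE, adjusted p = 0.0113). Col6a6 in HT measured 1.45, 7.97 and 28.7 CPM at E16.5, 58.1, 50.01 and 38.4 CPM at E18.5 and 14.9, 14.02 and 6.19 CPM at D2.5. Col6a6 in KO was at 12.5, 11.8 and 30.9, then 49.7, 49.1 and 59.99, then 6.84, 29.1 and 26.2 CPM at the same ages, and in WT at 8.64, 15.1 and 5.82 CPM. All 6 values of E18.5 lay above all others. Col6a6 fell in HT with a log2 fold change of -2.06 ± 0.68 (SE, adjusted p = 0.0153), with -1.35 ± 0.66 (SE, adjusted p = 0.0898) in KO. All 3 were lowest at E16.5 in HT replicate 1.

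Of the 9 fibril-associated collagens, which sit on the surface of fibrils, 3 rose in HT before birth (4.81% of all genes). Col12a1 and Col14a1 are typical of tendon and dense stroma, and both were called in HT whichever library was left out. Col12a1 in HT measured 0.579, 3.19 and 6.53 CPM at E16.5, 25.8, 19.8 and 17.3 CPM at E18.5 and 2.90, 5.94 and 3.44 CPM at D2.5. Col12a1 in KO was at 3.80, 3.66 and 5.16, then 20.8, 20.1 and 18.7, then 12.96, 6.67 and 17.9 CPM at the same ages, and in WT at 8.99, 5.89 and 35.96 CPM. WT replicate 3 held the highest value and KO lay above HT without overlap at D2.5, with a log2 fold change of 1.60 ± 0.73 (SE, adjusted p = 0.651), while KO overlapped with WT (-0.41 ± 0.70 SE, adjusted p = 0.955). Col12a1 rose before birth in HT by 2.60 ± 0.59 (SE, adjusted p = 0.00980) and in KO by 2.24 ± 0.58 (SE, adjusted p = 0.0338), and fell after it in HT with a log2 fold change of -2.34 ± 0.59 (SE, adjusted p = 0.00251), with -0.66 ± 0.56 (SE, adjusted p = 0.320) in KO. Col14a1 in HT measured 6.76, 11.3 and 15.4 CPM at E16.5, 44.1, 40.9 and 32.2 CPM at E18.5 and 40.99, 38.6 and 49.7 CPM at D2.5. Col14a1 in KO was at 9.93, 12.2 and 19.5, then 49.3, 34.03 and 35.6, then 24.3, 24.8 and 27.2 CPM at the same ages, and in WT at 48.6, 24.1 and 43.7 CPM. All E18.5 values lay above all E16.5 values, and HT overlapped between E18.5 and D2.5. The rise of Col14a1 was 1.81 ± 0.33 (SE, adjusted p = 0.00327) in HT and 1.51 ± 0.32 (SE, adjusted p = 0.0146) in KO. At D2.5 every KO library lay below every HT library, with a log2 fold change of -0.76 ± 0.38 (SE, adjusted p = 0.706).

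Col19a1, a collagen of developing muscle and brain, rose in HT before birth by 2.34 ± 0.72 (SE, adjusted p = 0.0387). Col19a1 in HT measured 1.06, 2.66 and 4.70 CPM at E16.5, 13.4, 15.2 and 14.3 CPM at E18.5 and 0.907, 6.55 and 9.45 CPM at D2.5. Col19a1 in KO was at 2.42, 3.15 and 13.4, then 40.3, 19.2 and 16.8, then 6.84, 11.7 and 7.39 CPM at the same ages, and in WT at 5.82, 7.17 and 7.53 CPM. HT at E18.5 lay above HT at E16.5 and D2.5 without overlap. KO lay above HT without overlap at E18.5, with a log2 fold change of 0.82 ± 0.27 (SE, adjusted p = 0.232), with replicate 1 well above the other KO libraries. Col22a1, which marks the junction of muscle and tendon, had another order of libraries. Col22a1 in HT measured 23.2, 73.7 and 57.5 CPM at E16.5, 45.8, 38.96 and 55.9 CPM at E18.5 and 27.2, 45.3 and 42.96 CPM at D2.5. Col22a1 in KO was at 31.8, 73.9 and 55.01, then 43.7, 42.6 and 74.5, then 15.7, 13.9 and 34.2 CPM at the same ages, and in WT at 27.7, 26.5 and 19.2 CPM. Replicate 2 was the highest at E16.5 in both genotypes. Col22a1 fell in KO after birth with a log2 fold change of -1.33 ± 0.42 (SE, adjusted p = 0.0111), with -0.28 ± 0.41 (SE, adjusted p = 0.576) in HT. Col9a1, a chain of the cartilage collagen type IX, was low everywhere. Col9a1 in HT measured 8.01, 1.50 and 1.82 CPM at E16.5, 8.21, 6.19 and 6.26 CPM at E18.5 and 0.363, 0.152 and 1.55 CPM at D2.5. Col9a1 in KO was at 1.81, 1.19 and 3.15, then 7.31, 4.78 and 8.54, then 0.360, 1.48 and 0.924 CPM at the same ages, and in WT at 0.176, 0.368 and 0 CPM. It was highest at E16.5 in HT replicate 1, where most collagens were lowest. Col9a1 fell after birth with a log2 fold change of -3.31 ± 0.84 (SE, adjusted p = 0.00275) in HT and -2.88 ± 0.82 (SE, adjusted p = 0.00601) in KO.

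The transmembrane collagens span the cell membrane. Col25a1, a collagen of neurons that guides motor axons into muscle, had the highest CPM of the 4. Col25a1 in HT measured 12.3, 36.7 and 48.1 CPM at E16.5, 55.7, 44.6 and 48.5 CPM at E18.5 and 51.5, 79.4 and 72.9 CPM at D2.5. Col25a1 in KO was at 39.1, 39.1 and 52.8, then 58.9, 52.4 and 66.2, then 53.8, 63.2 and 65.2 CPM at the same ages, and in WT at 80.5, 75.2 and 79.5 CPM. HT replicate 1 at E16.5 was the lowest of all 21 libraries. Col25a1 passed in no comparison, and its step to D2.5 in HT was 0.46 ± 0.33 (SE, adjusted p = 0.246). Col13a1, a collagen of the neuromuscular junction, was the only collagen called higher in HT after birth, where 3 collagens lay higher without overlap. Col13a1 in HT measured 13.7, 15.2 and 13.9 CPM at E16.5, 12.8, 12.5 and 14.04 CPM at E18.5 and 28.1, 22.4 and 36.9 CPM at D2.5. Col13a1 in KO was at 19.2, 16.3 and 10.9, then 10.6, 12.5 and 10.6, then 22.5, 18.7 and 17.7 CPM at the same ages, and in WT at 7.76, 27.2 and 6.68 CPM. At E16.5 its libraries did not follow the order of the other collagens. The rise was 1.15 ± 0.32 (SE, adjusted p = 0.00519) in HT and 0.81 ± 0.32 (SE, adjusted p = 0.0381) in KO. The call in KO was lost with a replicate block, without a filter on low counts and in 3 of the 6 fits that left out a KO library (0.79 to 1.01). In WT at D2.5, replicates 1 and 3 lay below all HT and KO libraries of that age. Col17a1, the collagen of hemidesmosomes in skin, rose in HT before birth by 1.78 ± 0.59 (SE, adjusted p = 0.0495) and fell in KO after it with a log2 fold change of -1.75 ± 0.59 (SE, adjusted p = 0.0176). Col17a1 in HT measured 2.32, 8.05 and 11.9 CPM at E16.5, 27.4, 26.9 and 22.6 CPM at E18.5 and 16.3, 6.71 and 9.97 CPM at D2.5. Col17a1 in KO was at 7.51, 6.05 and 19.3, then 30.6, 27.4 and 27.1, then 6.48, 2.97 and 15.9 CPM at the same ages, and in WT at 14.98, 12.9 and 9.59 CPM. All 6 values of E18.5 lay above all others. The call in HT was lost with RLE factors, with TMM factors over genes and repeats and in all but 1 of the 6 fits that left out an HT library (1.29 to 2.22).

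Col18a1, a multiplexin of basement membranes and the source of endostatin, had another course than most collagens. Col18a1 in HT measured 38.9, 33.6 and 30.9 CPM at E16.5, 15.8, 17.4 and 23.8 CPM at E18.5 and 8.34, 12.04 and 11.9 CPM at D2.5. Col18a1 in KO was at 33.5, 27.9 and 25.6, then 13.8, 23.9 and 17.7, then 9.90, 7.41 and 14.2 CPM at the same ages, and in WT at 19.9, 10.5 and 9.42 CPM. Its level was highest at E16.5, in HT replicate 1. Col18a1 fell in HT from E18.5 to D2.5 with a log2 fold change of -0.82 ± 0.33 (SE, adjusted p = 0.0428) and in KO with a log2 fold change of -0.81 ± 0.33 (SE, adjusted p = 0.0447), and the step before birth was -0.86 ± 0.33 (SE, adjusted p = 0.0799) in HT and -0.65 ± 0.33 (SE, adjusted p = 0.229) in KO. The call in HT after birth was lost when any of the 6 HT libraries was left out (-0.85 to -0.54), and that in KO was kept in 2 of 6 such fits (-0.97 to -0.47). Both were kept in 3 of 7 other settings and lost without a filter on low counts, with a stricter filter, with limma-voom and with a replicate block. Col10a1, the collagen of hypertrophic cartilage and the member of the short-chain class with the highest CPM, was also highest at E16.5 in HT replicate 1. Col10a1 in HT measured 8.69, 5.31 and 4.22 CPM at E16.5, 5.03, 2.69 and 4.33 CPM at E18.5 and 1.09, 6.55 and 6.36 CPM at D2.5. Col10a1 in KO was at 3.89, 6.05 and 3.72, then 3.02, 3.43 and 4.51, then 7.56, 4.45 and 19.8 CPM at the same ages, and in WT at 15.3, 19.5 and 12.7 CPM. KO replicate 3 at D2.5 was the highest of all. Col10a1 rose in KO after birth by 1.53 ± 0.65 (SE, adjusted p = 0.0496), with 0.23 ± 0.64 (SE, adjusted p = 0.783) in HT, and all WT libraries lay above all HT libraries (HT against WT -1.74 ± 0.75 SE, adjusted p = 1.000). The call in KO was lost without KO replicate 3 of D2.5 (0.85) and without each KO library of E18.5, and was kept in 3 of 7 other settings (lost with TMM factors over genes and repeats, without a filter, with limma-voom and with a replicate block).

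Col28a1, a collagen of peripheral nerve, had the lowest adjusted p of the 44 for KO against HT at E18.5. Col28a1 in HT measured 0.579, 9.47 and 19.3 CPM at E16.5, 41.1, 30.2 and 23.1 CPM at E18.5 and 11.1, 20.3 and 12.7 CPM at D2.5. Col28a1 in KO was at 11.7, 10.2 and 26.5, then 46.2, 45.1 and 53.5, then 18.5, 3.71 and 5.17 CPM at the same ages, and in WT at 8.81, 6.25 and 1.20 CPM. Every KO library of E18.5 lay above every HT library, with a log2 fold change of 0.62 ± 0.19 (SE, adjusted p = 0.190), and the difference passed without HT replicate 1 (0.85, adjusted p = 0.0392). It did not pass when any other library of E18.5 was left out, and was smallest without HT replicate 3 (0.44, adjusted p = 0.664). At E16.5 and D2.5 KO and HT overlapped. Col28a1 fell in KO after birth with a log2 fold change of -2.39 ± 0.73 (SE, adjusted p = 0.00909), with -1.09 ± 0.70 (SE, adjusted p = 0.190) in HT. Col26a1, described from testis and ovary, had the steepest fall. Col26a1 in HT measured 2.03, 4.25 and 8.26 CPM at E16.5, 9.96, 10.4 and 7.06 CPM at E18.5 and 0, 0.152 and 0 CPM at D2.5. Col26a1 in KO was at 5.36, 4.43 and 13.5, then 8.67, 13.2 and 15.02, then 0, 0 and 0.369 CPM at the same ages, and in WT at 0, 0 and 0 CPM. Every embryonic value lay above every value of D2.5. Summed over the 3 libraries, HT went from 324 counts at E18.5 to 1 at D2.5, a ratio of 163 after scaling (95% exact interval 29.02 to 6451, counting error only). KO went from 395 to 2 counts, a ratio of 101 (27.8 to 837). WT had 0 counts at D2.5, at least 51.4-fold lower than HT at E18.5, taking 3 counts over the group. At E16.5 Col26a1 was present in all 6 libraries.

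The other 13 collagens had means of 1.17 to 20.9 CPM and were called in none of the comparisons within an age or between ages in HT. They were Col4a2, Col4a5, Col6a3, Col7a1, Col8a1, Col8a2, Col9a2, Col9a3, Col15a1, Col16a1, Col20a1, Col23a1 and Col27a1. In KO after birth Col7a1 (-2.17 ± 0.79 SE, adjusted p = 0.0254), Col16a1 (-4.31 ± 0.70 SE, adjusted p = 4.29e-05) and Col27a1 (-1.81 ± 0.63 SE, adjusted p = 0.0197) fell. Col16a1, a collagen of skin and other fibril-rich tissue, had the lowest fitted value for KO against HT at D2.5; it was chosen for naming after its values were seen. Its HT libraries measured 5.62, 5.49 and 17.01 CPM, its KO libraries 1.44, 1.30 and 0.554 CPM and its WT libraries 2.29, 1.10 and 0.685 CPM, so that HT lay above both. KO against HT was -3.08 ± 1.08 (SE, adjusted p = 0.444) and HT against WT 2.76 ± 1.06 (SE, adjusted p = 1.000). Low counts kept some members out of the tests: Col8a1, Col9a1 and Col26a1 did not pass the filter on counts there, and Col8a1 did not at E16.5.

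Genes that make, modify and bind collagen were read from lists chosen by function. For the synthesis and processing genes (28 rows), 1 rose and 0 fell of 28 tested between E16.5 and E18.5 in HT (4.81% and 8.39% of all genes). Between E18.5 and D2.5 in HT, 1 rose and 10 fell of 28 (21.4% and 33.4% of all genes). Lox, the enzyme that crosslinks collagen fibrils, rose before birth by 3.27 ± 0.80 (SE, adjusted p = 0.0141), with 0.0965, 0.531 and 3.55 CPM at E16.5, 18.7, 10.4 and 11.5 at E18.5 and 36.6, 16.3 and 22.9 at D2.5. P3h3, a prolyl hydroxylase, Ppib, which folds procollagen, and Pcolce, an enhancer of procollagen cleavage, fell after birth at -5.14, -3.76 and -3.31 (log2 fold change). No gene of this list passed between KO and HT at any age. Of 27 tested at E16.5, 0 had an unadjusted p under 0.05 (1.17% of all genes). The counts were 1 of 28 in the fit of E18.5 (8.12%) and 1 of 26 in that of D2.5 (7.21%). Over all genes, 0.00618%, 2.14% and 0.153% passed in these comparisons, from the youngest age to the oldest.

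Among 10 collagen receptor genes, 0 rose and 0 fell of 10 between the embryonic ages in HT (4.81% and 8.39% of all genes) and 2 rose and 3 fell of 10 after birth (21.4% and 33.4%). Ddr1, a receptor kinase for collagen on epithelial cells, fell with a log2 fold change of -5.57 ± 0.37 (SE, adjusted p = 1.28e-09), and Itga11, the fibroblast integrin for type I collagen, with a log2 fold change of -3.67 ± 0.73 (SE, adjusted p = 0.000337). Between KO and HT at E18.5, 1 of 10 receptor genes passed, where 2.14% of all genes passed. It was Lair1, an inhibitory collagen receptor of immune cells, higher in KO with a log2 fold change of 2.19 ± 0.24 (SE, adjusted p = 0.000122). Its libraries of that age measured 5.85, 6.12 and 5.38 CPM in HT and 34.9, 17.96 and 26.6 CPM in KO. Of 12 macrophage and blood markers, 6 were tested in that comparison and 2 passed (2.14% of all genes). Adgre1 (1.43 ± 0.27 SE, adjusted p = 0.00883) and Mrc1 (1.82 ± 0.18 SE, adjusted p = 6.27e-05) were higher in KO at E18.5. Other matrix genes of stroma (20 rows) gave 3 rose and 1 fell of 20 before birth (4.81% and 8.39% of all genes) and 3 rose and 5 fell of 20 after it (21.4% and 33.4%). Vcan, a proteoglycan of embryonic stroma, rose by 2.69 ± 0.46 (SE, adjusted p = 0.00256), and Tnc, a glycoprotein of growing stroma, fell after birth with a log2 fold change of -5.45 ± 0.94 (SE, adjusted p = 8.01e-05). Fn1, which encodes fibronectin, made up most of this list's sum in HT replicate 1 at E16.5, at 1382, 510.1 and 304 CPM in HT. Between KO and HT at E18.5, 2 of the 20 matrix genes passed (2.14% of all genes). Fbn1, which encodes fibrillin (0.72 ± 0.17 SE, adjusted p = 0.0447), and Fbln5, a protein of elastic fibres (1.19 ± 0.22 SE, adjusted p = 0.00781), were higher in KO. Of 14 further basement membrane genes, 3 rose and 0 fell of 14 before birth (4.81% and 8.39% of all genes) and 2 rose and 7 fell of 14 after it (21.4% and 33.4%): Nid1, which links laminin to type IV collagen, rose by 2.56 ± 0.31 (SE, adjusted p = 1.10e-06), while Hspg2, which encodes perlecan, fell with a log2 fold change of -2.11 ± 0.23 (SE, adjusted p = 2.63e-07).

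Markers of the other cells of the testis give the surroundings of these values. The 8 peritubular myoid markers summed to 20.3 to 73.1 CPM at E16.5, 97.9 to 122 CPM at E18.5 and 39.00 to 76.7 CPM at D2.5, so that all E18.5 libraries lay above the others. In HT after birth 1 rose and 4 fell of 8 (21.4% and 33.4% of all genes), among them Acta2, the actin of smooth muscle, with a log2 fold change of -2.46 ± 0.56 (SE, adjusted p = 0.00101). The 15 Sertoli markers summed to 154 to 241, 218 to 274 and 177 to 473 CPM at the same ages. Of their defining members, Sox9 measured 1.26 to 22.3 CPM and Amh, the hormone of fetal Sertoli cells, 0 to 3.21 CPM. Leydig markers summed to 41.5 to 148 CPM, endothelial markers to 94.2 to 261 CPM and macrophage and blood markers to 26.7 to 108 CPM over the 21 libraries. At D2.5 in HT after E18.5, 3 rose and 5 fell of 16 stromal markers tested (21.4% and 33.4%), with Pdgfrb, the PDGF receptor of perivascular cells, with a log2 fold change of -2.69 ± 0.62 (SE, adjusted p = 0.00128). Between KO and HT at D2.5, 0 of 13 stromal markers passed, with 2 at an unadjusted p under 0.05 (7.21% of all genes). In that comparison 2 of 13 were higher in every KO library (5.83% of all genes) and 1 was lower (5.87%). Against WT, 0 of 13 passed, with 4 at an unadjusted p under 0.05 (7.77%). There, 5 of 13 were higher in every KO library (6.41%) and 1 was lower (6.2%). The part of any of these cells in the collagen values was not tested.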

How the data were processed

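Read counts per gene and per repeat name were deposited by the authors as 1 table per age, and per the submitters' processing notes the tools were featureCounts, STAR, edgeR and Bowtie with mm9 as the build; their roles and versions were not stated. The counts were not normalized, their values being whole numbers with unlike totals, and whether strand was used in counting was not stated. Only the 24495 gene rows entered the analysis; 1217 repeat names were left out of totals. The library kit amplifies RNA from few cells.

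Counts were tested with edgeR 4.0.16 (R 4.3.3; quasi-likelihood test, TMM factors, filterByExpr with a minimum count of 10 and a minimum total of 15, Benjamini-Hochberg adjustment over all genes, threshold 0.05). Fits used the 6 libraries of E16.5, the 6 of E18.5, the 9 of D2.5, and, for age and for the difference of the KO effect between ages, the 18 HT and KO libraries. SE values were the log2 fold change divided by the square root of the F statistic. CPM values used TMM factors over all 21 libraries. Each fit was tested on simulated counts. Alternatives were DESeq2 1.42.0, limma-voom (limma 3.58.1), RLE factors, other count filters, a replicate block and leaving out each library. Every collagen is accounted for; those that passed in any of 9 comparisons, the 12 with the highest mean and the highest of each class are given by library. Other lists are given by counts, with up to 4 genes that passed. The members and lists were chosen with earlier results of these data known. P-values measure the spread between the libraries of a group.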

Additional observations from a re-analysis of the deposited data

How the results depend on the processing

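No result changed direction under any alternative run, for the counts of collagens called, the collagens named with a test, and Tex15. For KO against HT at E18.5, 1 collagen (Col28a1) passed with a replicate block, and 0 to 1 passed when a library was left out. For KO against HT at D2.5, 2 (Col1a2 and Col3a1) passed without a filter on low counts and 1 (Col1a2) with DESeq2. The 13 calls between E16.5 and E18.5 in HT became 29 with limma-voom, 21 with a replicate block and 3 to 28 without a library. The 4 in KO became 10 with DESeq2, 14 with limma-voom, 8 with a replicate block and 0 to 8 without a library. The 23 between E18.5 and D2.5 in KO became 14 to 20 without a library. The cause was not tested. The other counts stayed within 1.5 times the reported count. Samples with the same replicate number correlated in their deviations from the group means at -0.125 to 0.758 at E16.5 (3 pairs), 0.0911 to 0.210 at E18.5 (3 pairs) and -0.0590 to 0.0322 at D2.5 (9 pairs). Samples of unlike number correlated at -0.713 to 0.516, -0.224 to 0.103 and -0.0570 to 0.0373 at these ages. The main fits did not take the numbers as pairs, and the replicate block was run as an alternative. Whether same-numbered libraries share a batch was not tested.

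Without TMM factors the mean summed collagen level was 1689 CPM in HT and 1664 CPM in KO at E18.5 and 788 CPM in HT at D2.5. Scaled to the total of genes and repeats it was 407 in KO at E16.5, 777 in HT and 695 in KO at E18.5, and 274 in WT, 259 in HT and 322 in KO at D2.5. Collagens near 1 CPM rested on few counts per library, which limits what could be detected for them.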
